A study of Mus musculus with 5 samples.

Results

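Interferon response genes were followed in hematopoietic stem cells (HSCs) from the bone marrow of mice aged 3 weeks. The group holds 43 genes of the 55335 in the expression table, chosen by name as interferon receptors, signalling factors and interferon-induced genes, and all 43 were found and tested. Wild-type mice gave 3 libraries and RankCre-ki mice gave 2. Animals of the RankCre-ki group have Cre knocked into Rank (Tnfrsf11a) together with 1 null and 1 floxed allele of Csf1r, the receptor for macrophage colony-stimulating factor. The wild-type group is described by its label alone, with no allele named. According to the study, Rank-driven recombination takes place in macrophages of embryonic origin and spares the rest of the blood lineages, and the mice are without such macrophages and without osteoclasts. The question is therefore how HSCs differ after developing without embryonic macrophages, and no group received interferon or another agent. HSCs were sorted as lineage-negative cells with Kit, Sca-1 and CD150 and without CD48. The input was a small pool of cells per library, with 90, 90 and 80 given at the end of the wild-type library names and 80 and 86 at the end of the RankCre-ki names. The labels do not say whether a library stands for 1 animal, so p-values measure the spread between these libraries. The labels give the strain as C57BL/6J for all libraries, whereas the study's methods state that the line with the null Csf1r allele was kept on C3H/HeJ.

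Interferons are cytokines that cells release on contact with viruses, foreign nucleic acid or activated immune cells. Type I interferons bind the receptor chains Ifnar1 and Ifnar2, and interferon gamma binds Ifngr1 and Ifngr2. The receptors act through Janus kinases on transcription factors. Stat2 and Irf9 take part in a complex that binds the interferon-stimulated response element (ISRE) in promoters, while the response to interferon gamma also works through the gamma-activated site (GAS). The induced genes code for proteins that block virus entry, sense or degrade foreign RNA and feed back on the pathway. In HSCs, type I and type II interferons are known to drive cells out of quiescence, and stem cells are known to keep a set of these genes, the Ifitm family among them, at a steady level without an added stimulus.

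Several features of the libraries stand beside all results. Values are TPM, the share of each gene among all transcripts after division by transcript length, so that levels can be compared between genes, but sequencing depth is unknown. At least 1 TPM was found for 9021 to 11084 genes in the wild-type libraries and for 12801 and 16386 in the RankCre-ki libraries. By their names the libraries belong to 2 series. Name series 1 holds RankCre-ki replicate 2 and wild-type replicate 1, and the other 3 libraries make up name series 2. The study's methods describe 2 tagmentation kits used on sets of the same composition, and that each name series is 1 such set is an inference. The Y-linked gene Eif2s3y was at 41.6 and 62.5 TPM in the libraries of name series 1 and at 0 to 0.288 TPM in those of name series 2. RankCre-ki replicate 2 is labelled female, so its transcripts go against its label, and name series, kit and sex cannot be told apart. Csf1r measured 2.39, 0 and 0.234 TPM in the wild-type libraries against 17.5 and 6.46 TPM in both libraries labelled RankCre-ki, a direction opposite to a loss. All 10 HSC markers checked were tested, and at least 8 of them reached 1 TPM in every library. In these bulk samples, fewer cells with a transcript and less RNA per cell cannot be told apart.

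The promoters of the group were read first, because the ISRE is a sequence through which interferon-induced genes are known to be activated. A RefSeq promoter (GRCm38.p6, 250 bases before to 50 bases after the start) was found for 35 of the 43 genes. The core of the ISRE, written GAAANNGAAA and searched on both strands, occurred in 16 of these 35 genes (45.7%), against 3.99% of all 27025 genes and 3.44% of all 32851 promoters in the table. The palindrome of the GAS, TTCNNNGAA, occurred in 14 of the 35 genes, against 9.55% of all genes. Both motifs occurred in 6 genes, where they may overlap. A match describes letters and does not show that a factor binds.

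Stretches of 4 promoters are printed 5′ to 3′ on the strand of the gene, with the ISRE core in capitals. Ifitm2 and Ifitm3 are shown because they are neighbours of high level with different patterns across the libraries, and Oas1a and Oas3 because their levels in the RankCre-ki libraries lay on opposite sides of the wild-type libraries. The stretch of Ifitm2 is chr7:140955983-140956022 on the minus strand, with the match at -46 to -37 from the start. That of Ifitm3 is chr7:141010716-141010742 on the minus strand, with 2 matches between positions 3 and 29 of the transcript. That of Oas1a is chr5:120907526-120907560 on the minus strand, with 2 overlapping matches between -20 and -5. That of Oas3 is chr5:120777710-120777749 on the minus strand, with the match at -75 to -66.
Ifitm2: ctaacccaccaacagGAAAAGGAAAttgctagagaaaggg
Ifitm3: GAAAAGGAAActtctgaGAAACCGAAA
Oas1a: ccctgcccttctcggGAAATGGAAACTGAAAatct
Oas3: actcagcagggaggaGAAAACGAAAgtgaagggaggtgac
No match to the core was found in this window of Ifitm1, the highest gene of the group, and Isg15, the lowest, held 3 matches.

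The group was expressed over a wide range without an added stimulus. Mean levels over the 5 libraries ran from 1.37 TPM for Isg15 to 5302 TPM for Ifitm1, and 33 of 43 genes had a mean of at least 10 TPM. Together the 43 genes held 0.718%, 1.53% and 1.52% of all TPM in wild-type replicates 1 to 3 and 1.30% and 0.564% in RankCre-ki replicates 1 and 2. Ifitm1, Ifitm2 and Ifitm3 accounted for most of this share, with 0.636%, 1.28% and 1.33% in wild-type and 1.10% and 0.435% in RankCre-ki. At least 1 TPM was reached by 35, 38 and 38 genes in the wild-type libraries and by 43 and 38 genes in the RankCre-ki libraries, a difference of group means of 3.5 genes. The lowest level of a gene was found in wild-type replicate 1 for 23 of the 43 genes (53.5%), and wild-type replicate 1 held the lowest level for 37.6% of all tested genes. Ties went to the library listed first, so wild-type replicate 1 was counted when tied at 0, as for Ifit3 and Mx1.

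**Figure D1:**
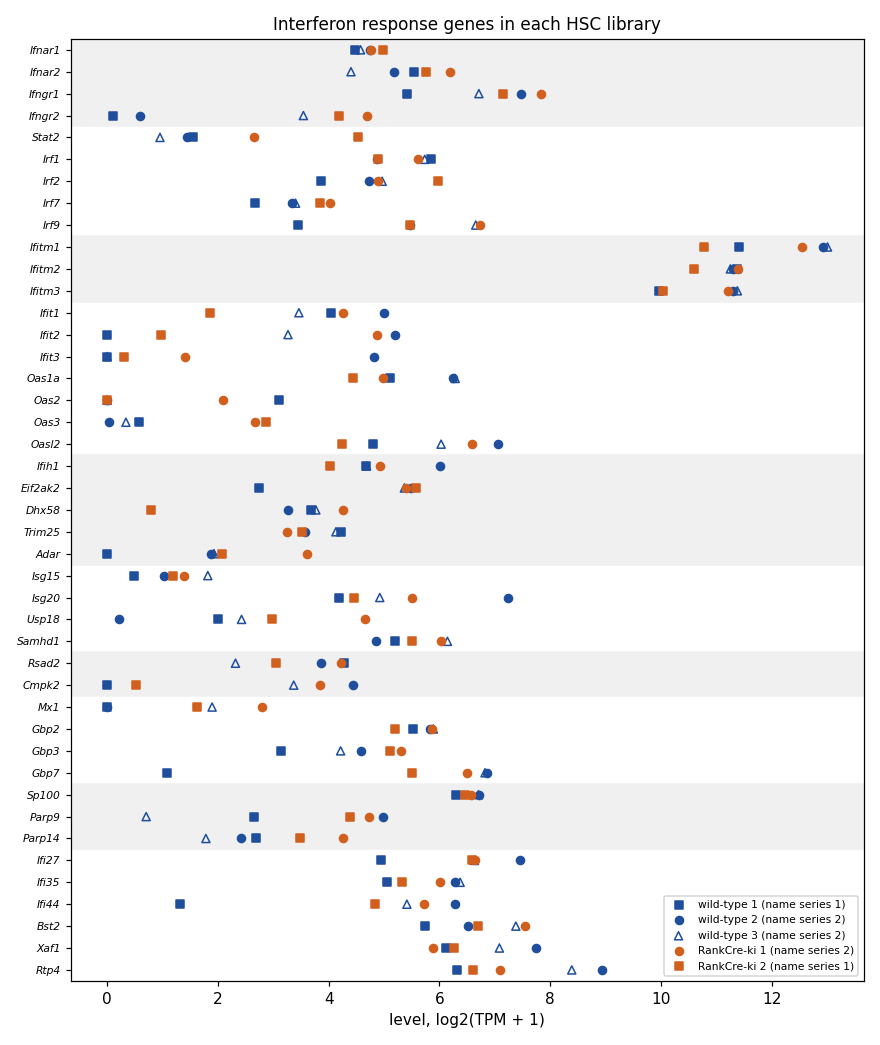
Level of each interferon response gene in each library on the log2(TPM + 1) scale, with 1 symbol per library, genotype by color (blue wild-type, orange RankCre-ki), name series by shape (squares for name series 1, circles and triangles for name series 2) and genes in rows by role. The Ifitm genes stand far to the right of all others, and for Ifitm1 and Ifitm3 both squares lie to the left of the other symbols.

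No gene of the group passed the test between genotypes. The threshold with limma was an adjusted p of at most 0.1 together with an absolute log2 fold change above 2. It was reached by 0 of 43 genes and by 0 of 13981 tested genes (0%). The study reported genes past the same limits in both directions, with another test on fragment counts that was not repeated here. At an unadjusted limma p under 0.05 stood 1 gene of the group, Oas3, against 6.87% of all tested genes (6.34% higher and 0.529% lower in RankCre-ki). The median log2 fold change of the 43 genes was 0.18, against 0.52 for all tested genes, and 25 of 43 genes (58.1%) were above 0 against 72.3% of all tested genes. Relative to the median of all genes the group lay at -0.34, within the spread of this median between wild-type libraries (SD 0.53), and without wild-type replicate 2 or RankCre-ki replicate 2 it lay at 0.09 or 0.12. For 10 genes both RankCre-ki libraries exceeded every wild-type library (23.3%, against 18.8% of all tested genes), and for 2 genes both were below (4.65%, against 3.71%). These shares were near those of all genes. After median-ratio scaling, which moved the median of all genes to 0.16, the counts were 5 above and 6 below (11.6% and 14.0%, against 12.2% and 8.88% of all tested genes). After quantile normalization, with the median of all genes at -0.09, they were 3 above and 5 below (6.98% and 11.6%, against 11.6% and 11.2%).

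**Figure D2:**
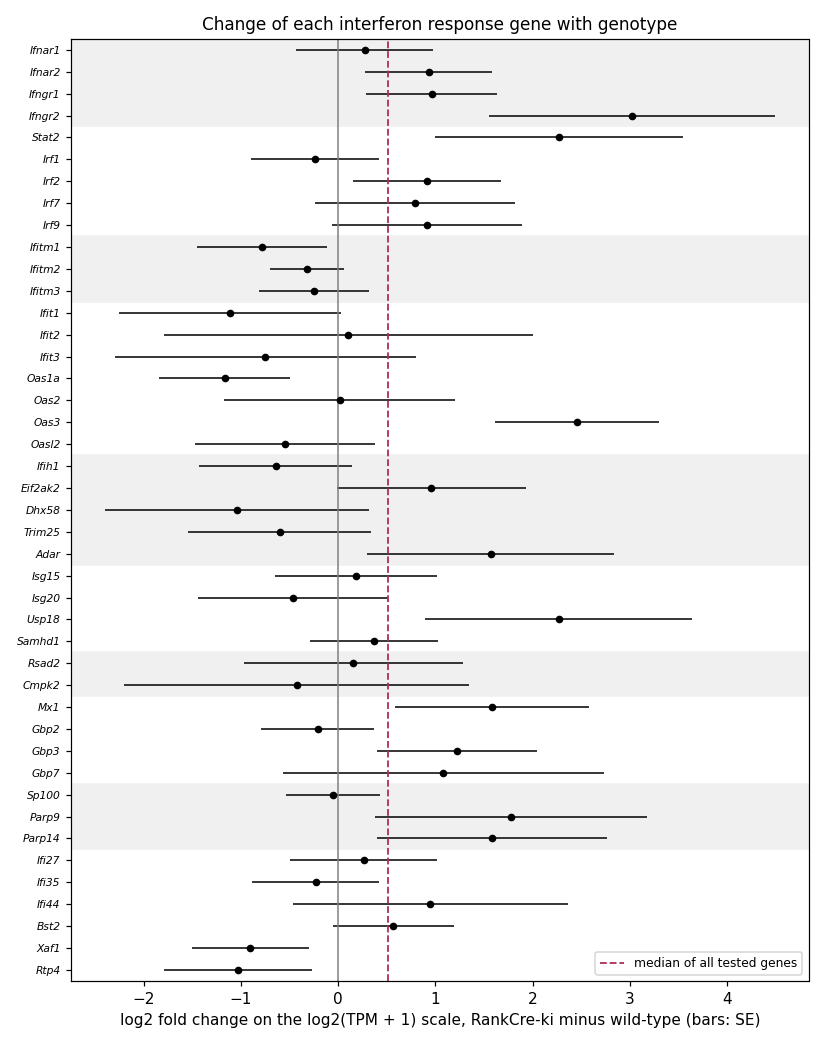
Log2 fold change of each interferon response gene, RankCre-ki minus wild-type, on the log2(TPM + 1) scale (points, with SE from limma as bars) beside the median of all tested genes (dashed line at 0.52). Genes are in rows by role, Oas3 at 2.46 is the single point with an unadjusted p under 0.05, and 18 of the 43 points lie to the right of the dashed line.

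Of the 4 receptor genes, 3 had both RankCre-ki libraries above all wild-type libraries. In what follows, values are TPM in wild-type replicates 1, 2 and 3 and then in RankCre-ki replicates 1 and 2. Ifnar1, a chain of the type I interferon receptor, was at 21.3, 25.95 and 22.8 TPM and at 26.04 and 30.7 TPM. Its groups were separated by less than the spread of the wild-type libraries, and its log2 fold change of 0.27 ± 0.70 (SE) was under the median of all genes. Ifnar2, the other chain, was at 45.7, 35.4 and 20.1 TPM and at 72.2 and 53.0 TPM. Exons of Ifnar2 overlap those of Gm21970 on the same strand, so that the 2 can share signal. Ifngr1, the ligand-binding chain for interferon gamma, had the highest level of the receptors with 41.4, 176 and 104 TPM and 227 and 141 TPM. Its groups overlapped, with wild-type replicate 1 lowest. Ifngr2, the second gamma chain, was at 0.0799, 0.507 and 10.7 TPM and at 24.8 and 17.2 TPM. It had the largest log2 fold change of the group, 3.02 ± 1.47 (SE), with an unadjusted limma p of 0.0745, and the wild-type libraries ranged over more than this on the log2 scale. Ifnar2, Ifnar1 and Ifngr2 lie side by side on chromosome 16, with 79648 bases between Ifnar2 and Ifnar1 and 39630 bases between Ifnar1 and Ifngr2.

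Of the 5 signalling factors, Stat2 and Irf7 had RankCre-ki libraries above all wild-type libraries. Stat2, a transcription factor of the type I response, was at 1.92, 1.73 and 0.936 TPM and at 5.27 and 22.1 TPM. The RankCre-ki libraries were also far from each other, and the log2 fold change was 2.27 ± 1.27 (SE). Irf7, which drives later interferon production, was at 5.35, 9.16 and 9.56 TPM and at 15.2 and 13.4 TPM, and its exons overlap those of Phrf1 on the opposite strand. Irf9, which binds the ISRE together with Stat2, was at 9.85, 43.2 and 99.8 TPM and at 105 and 43.5 TPM. Wild-type replicate 1 was the lowest for Irf9, and its exons overlap those of Rnf31 on the same strand. Irf1, an activator induced by interferon gamma, was at 56.7, 28.5 and 52.2 TPM and at 47.9 and 28.6 TPM. Irf2, known as a repressor of the same sites, was at 13.6, 25.4 and 30.2 TPM and at 28.6 and 62.0 TPM. The groups of Irf1, Irf2 and Irf9 overlapped.

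The Ifitm genes code for small membrane proteins that restrict virus entry, and they were the highest genes of the group in every library. They lie in a cluster on chromosome 7, Ifitm2 at chr7:140954837-140955987, Ifitm1 at chr7:140967221-140969825 and Ifitm3 at chr7:141009586-141010770. Ifitm1 was at 2724, 7802 and 8225 TPM and at 6004 and 1754 TPM. Ifitm3 was at 992, 2507 and 2662 TPM and at 2375 and 1045 TPM. For both genes the libraries of name series 1 were the low ones in each genotype, and the genotypes overlapped. Ifitm2 was at 2644, 2533 and 2439.6 TPM and at 2668 and 1552 TPM, a narrow range in 4 libraries with RankCre-ki replicate 2 low. The log2 fold changes between genotypes were -0.78 ± 0.67 for Ifitm1, -0.32 ± 0.38 for Ifitm2 and -0.25 ± 0.57 for Ifitm3 (SE). Leaving out RankCre-ki replicate 1 moved that of Ifitm1 to -1.67 and leaving out RankCre-ki replicate 2 moved it to 0.10. The Ifitm sequences are alike, and exons of Ifitm2 overlap those of Gm45717, so that the split of signal among them is uncertain.

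Among the Oas genes, which make the 2-5A signal for RNA decay, Oas3 and Oas1a lay on opposite sides. Oas3, at chr5:120753098-120777661, was at 0.498, 0.0219 and 0.264 TPM and at 5.37 and 6.33 TPM. The groups did not overlap, and the difference was present in both name series (2.29 and 2.49 on the log2 scale). Its log2 fold change was 2.46 ± 0.85 (SE), with an unadjusted limma p of 0.0201, and its adjusted p of 0.546 did not pass. The value depends on the scale for low genes, being 4.31 with a pseudocount of 0.1 and 1.07 after quantile normalization. Oas1a was at 33.4, 74.8 and 76.9 TPM and at 30.7 and 20.7 TPM. Both RankCre-ki libraries were below wild-type replicate 1, the lowest wild-type library, RankCre-ki replicate 1 by a small margin, and the log2 fold change was -1.17 ± 0.67 (SE). Oas1a belongs to a family of near copies that can exchange signal. Oasl2, an Oas-like gene, was at 26.7, 132 and 64.3 TPM and at 95.0 and 17.8 TPM. Oas2, which lies 3244 bases from Oas3, was at 0 in 3 libraries and at most at 7.60 TPM.

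The Ifit genes, whose proteins bind foreign RNA caps, varied strongly within each genotype. Ifit1 was at 15.5, 31.1 and 10.01 TPM and at 18.1 and 2.60 TPM. Ifit2 was at 0, 35.5 and 8.61 TPM and at 28.4 and 0.953 TPM, with both libraries of name series 1 at the bottom. Ifit3, next to Ifit2 on chromosome 19, reached 27.3 TPM in wild-type replicate 2 and at most 1.65 TPM elsewhere, and it has a near copy, Ifit3b. The groups overlapped for all 3 genes.

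The genes for RNA sensing and editing showed no common direction. Ifih1, the sensor of long double-stranded RNA also called MDA5, was at 24.5, 63.2 and 24.7 TPM and at 29.3 and 15.3 TPM. Eif2ak2, the kinase that stops translation on double-stranded RNA, was at 5.66, 43.6 and 40.2 TPM and at 40.9 and 46.9 TPM. For Eif2ak2, wild-type replicate 1 alone was low and the other libraries were alike. Dhx58, a regulator of these sensors, was at 11.8, 8.55 and 12.6 TPM and at 18.2 and 0.725 TPM, and its exons overlap the antisense gene Dhx58os. Trim25, a ubiquitin ligase of the RIG-I pathway, was at 17.7, 10.9 and 16.5 TPM and at 8.46 and 10.4 TPM. Its RankCre-ki libraries lay just below the wild-type libraries, with a log2 fold change of -0.60 ± 0.94 (SE). Adar, which edits adenosine in double-stranded RNA, was at 0, 2.67 and 2.81 TPM and at 11.2 and 3.19 TPM. Its RankCre-ki libraries lay above the wild-type libraries, RankCre-ki replicate 2 by a small margin.

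The Isg15 system and the nucleases were mostly modest in level. Usp18, the protease that removes Isg15 and dampens receptor signalling, was at 3.01, 0.152 and 4.37 TPM and at 24.2 and 6.86 TPM. Its RankCre-ki libraries were the 2 highest, and the log2 fold change was 2.27 ± 1.37 (SE). Isg15, the ubiquitin-like modifier, was between 0.392 and 2.52 TPM in all libraries. Isg20, an RNA exonuclease, was at 17.1, 150.4 and 29.3 TPM and at 44.6 and 20.9 TPM. Samhd1, which removes deoxynucleotides, was at 35.8, 28.1 and 69.7 TPM and at 64.5 and 44.4 TPM. The groups overlapped for Isg15, Isg20 and Samhd1. Rsad2, known as viperin, was at 18.4, 13.6 and 3.98 TPM and at 17.8 and 7.28 TPM. Cmpk2, a nucleotide kinase 12751 bases from Rsad2 on the opposite strand, was between 0 and 20.6 TPM. The neighbours did not share a pattern, since Rsad2 was highest in wild-type replicate 1, where Cmpk2 was at 0.

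The guanylate-binding proteins, GTPases that attack pathogen compartments, differed among themselves. Gbp3 was at 7.84, 23.0 and 17.6 TPM and at 38.7 and 33.3 TPM. Its RankCre-ki libraries were the 2 highest, and the log2 fold change was 1.22 ± 0.82 (SE). Gbp2 was at 44.7, 55.6 and 58.3 TPM and at 57.4 and 35.6 TPM. Gbp7 was at 1.12, 116 and 112 TPM and at 89.4 and 44.4 TPM. Wild-type replicate 1 stood far below the rest for Gbp7, and without it the log2 fold change moved from 1.08 to -0.84. Mx1, a GTPase against influenza virus, was at 0 in 2 wild-type libraries and at most at 5.98 TPM.

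Of the Parp genes and the nuclear body gene, Parp14 had both RankCre-ki libraries above all wild-type libraries. Parp14, an ADP-ribosyl transferase, was at 5.40, 4.35 and 2.44 TPM and at 18.2 and 10.2 TPM, and its log2 fold change was 1.58 ± 1.18 (SE). Parp9, its partner, was at 5.29, 30.6 and 0.629 TPM and at 25.5 and 19.9 TPM, and its exons overlap those of Dtx3l on the opposite strand. Sp100, a nuclear body protein, was at 77.4, 104 and 103 TPM and at 94.0 and 87.0 TPM. It was the steadiest gene of the group, with its highest library 1.35 times its lowest.

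The remaining induced genes had overlapping groups throughout. Rtp4, known as a chaperone of receptors and an interferon-induced gene, was at 78.3, 488 and 334 TPM and at 136 and 95.8 TPM. Bst2, known as tetherin, was at 52.6, 90.3 and 165 TPM and at 185 and 102 TPM. Xaf1, a pro-apoptotic factor, was at 68.7, 213 and 134 TPM and at 57.96 and 76.1 TPM. For Rtp4 and Xaf1 wild-type replicates 2 and 3 were the highest libraries. Ifi27 was at 29.96, 175 and 98.2 TPM and at 98.8 and 94.8 TPM. Ifi35 was at 32.0, 76.9 and 81.9 TPM and at 63.3 and 39.1 TPM. Ifi44 was at 1.47, 76.4 and 41.6 TPM and at 51.6 and 27.6 TPM. Wild-type replicate 1 was the lowest library for all of Ifi27, Ifi35 and Ifi44.

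Within the name series, the genotype difference of a gene often changed sign. RankCre-ki was above wild-type in both series for 18 of 43 genes (41.9%, against 44.5% of all tested genes), below in both for 4 (9.30%, against 12.9%), and in opposite directions for 21 (48.8%, against 39.1%). The median difference of the group was 0.51 in name series 1, against 0.53 for all tested genes, and 0.09 in name series 2, against 0.40. Oas2, listed at 0 in 3 libraries, showed the widest gap, with -3.10 in name series 1 and 2.10 in name series 2, followed by Gbp7 with 4.42 and -0.35. With name series as a block, 0 genes of the group passed the threshold and 3 stood at an unadjusted limma p under 0.05, Oas3 (2.40), Ifngr1 (1.17) and Ifitm1 (-0.51 on the log2 scale), against 8.89% of all tested genes higher and 1.19% lower in RankCre-ki.

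**Figure D3:**
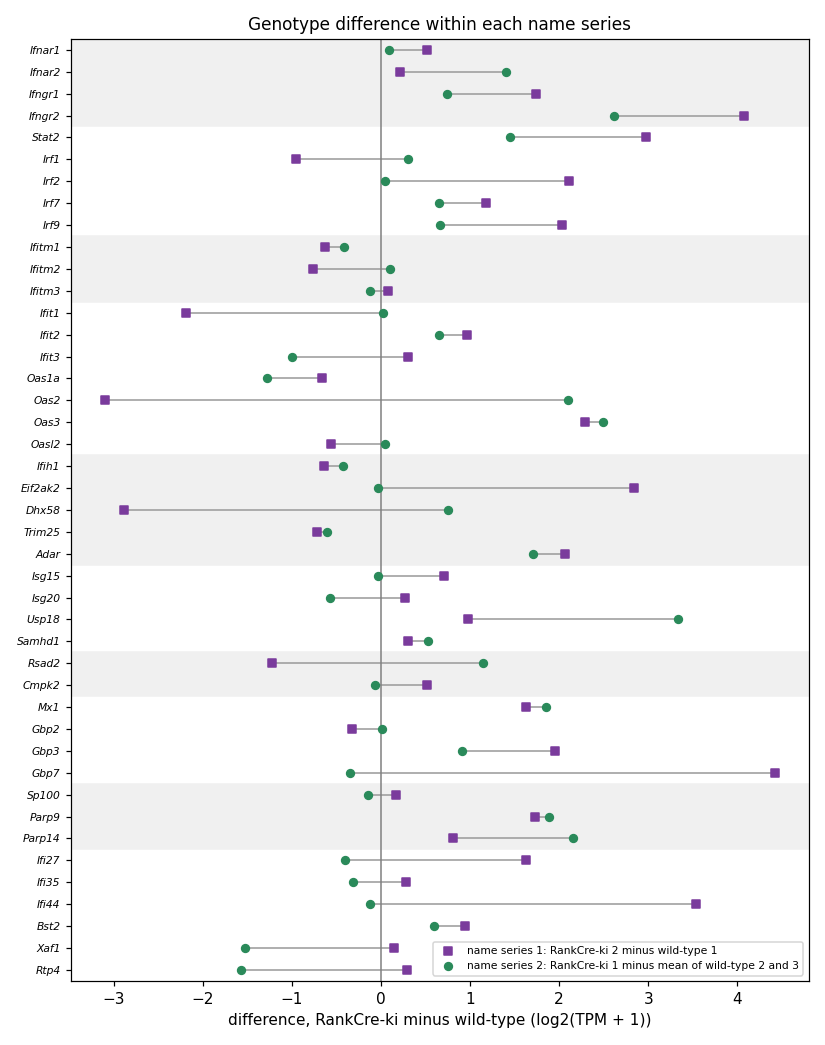
Difference between RankCre-ki and wild-type on the log2(TPM + 1) scale for each interferon response gene, in name series 1 (squares, 1 library against 1) and name series 2 (circles, 1 library against the mean of 2). Lines join the 2 values of a gene, and for 21 of 43 genes they cross 0.

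Across name series, most genes of the group were lower in name series 1, and Ifitm1 and Ifitm3 passed the adjusted limit. This comparison was added after the data were seen and was fitted with genotype in the same model. Of the 43 genes, 35 (81.4%) were lower in name series 1, against 57.1% of all tested genes, with a median difference of -0.90 on the log2 scale against -0.24. At an adjusted limma p of at most 0.1 stood 2 genes, both lower in name series 1, where 8.34% of all tested genes were called (0.815% lower and 7.52% higher), and 0 of 43 also had an absolute log2 difference above 2. They were Ifitm1, at -1.65 ± 0.15 (SE), and Ifitm3, at -1.30 ± 0.17 (SE), both with an adjusted p of 0.0816, while Ifitm2 differed by -0.28 ± 0.25 (SE). Leaving out 1 library at a time, the difference stayed between -1.56 and -1.77 for Ifitm1 and between -1.18 and -1.38 for Ifitm3. Ifitm1 lost its call without wild-type replicate 1 (adjusted p 0.129), RankCre-ki replicate 1 (0.117) or RankCre-ki replicate 2 (0.124). Ifitm3 lost it without any 1 of the 5 libraries, with adjusted p from 0.117 to 0.193, and without RankCre-ki replicate 1 the number of calls over all tested genes was 0. After median-ratio scaling both genes stood just above the limit (0.102 and 0.105). Both genes were lower in name series 1 in each of these fits.

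At an unadjusted limma p under 0.05, 10 genes of the group were lower and 0 higher in name series 1, against 7.7% of all tested genes lower and 12.3% higher. Without wild-type replicate 1 the number lower was 4, against 4.01% of all tested genes, and without either RankCre-ki library 1 gene was higher. Besides Ifitm1 and Ifitm3 the 10 were Ifit2 (-4.09), Gbp7 (-3.72), Cmpk2 (-3.65), Ifi44 (-2.97), Irf9 (-2.03), Oasl2 (-2.01), Rtp4 (-1.56) and Ifngr1 (-1.26 on the log2 scale). All libraries of name series 2 lay above both of name series 1 for 14 genes (32.6%, against 15.9% of all tested genes), and the opposite held for 0 genes (against 17.1%). Irf9 and Ifngr1 were not among the 14. Besides the remaining genes just named, the 14 held Gbp2, Ifi27, Ifi35, Ifih1, Isg20 and Sp100, with differences from -0.29 to -1.54. Both comparisons within a genotype pointed down for 28 genes (65.1%, against 37.5%), wild-type replicate 1 being below the mean of wild-type replicates 2 and 3 for 32 genes and RankCre-ki replicate 2 below RankCre-ki replicate 1 for 36. Without the Ifitm genes, 32 of 40 genes were lower in name series 1 and the median was -0.85. Over the scalings, filters and left-out libraries, the number of genes lower in name series 1 ranged from 31 to 37, with 38 genes tested under the stricter filter and 43 otherwise.

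**Figure D4:**
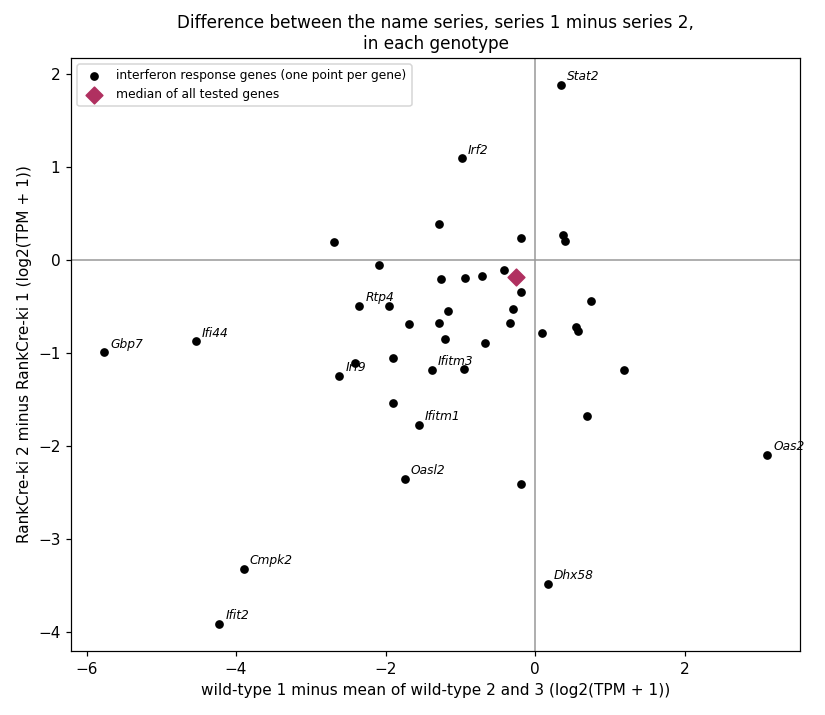
Difference between name series 1 and name series 2 on the log2(TPM + 1) scale for each interferon response gene, in wild-type libraries on the horizontal axis and in RankCre-ki libraries on the vertical axis. The lower left field, where name series 1 is lower in both genotypes, holds 28 of the 43 points, and the diamond marks the medians of all tested genes (-0.26 and -0.18).

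Several measures moved with the name series beside this result, and their part in it was not tested. The summed level of the 10 HSC markers was 388 and 709 TPM in the libraries of name series 1 and 547 to 1257 TPM in name series 2. Of the 10 markers, 9 were lower in name series 1, against 57.1% of all tested genes. Ly6a, which codes for the sort marker Sca-1 and is itself known to respond to interferon, was at 72.1, 159 and 185 TPM and at 155 and 47.7 TPM, with both libraries of name series 1 lowest (-1.43 on the log2 scale, unadjusted limma p 0.00846). The 8 B cell markers summed to 38.1 and 31.6 TPM in name series 1 and to 73.5 to 160 TPM in name series 2. The 10 neutrophil markers summed to 428 and 416 TPM in name series 1 and to 176 to 316 TPM in name series 2. Among erythroid markers, Car1 was at 20.7 and 674 TPM in name series 1 and at 0 in name series 2. Klf1 was at 1.73 and 46.3 TPM against 0 to 1.09 TPM. Of 7 tested erythroid markers 2 were lower in name series 1. The megakaryocyte marker Pf4 was at 147 and 139 TPM in name series 1 and at 38.4 to 67.0 TPM in name series 2. Of 5 tested megakaryocyte markers 3 were lower in name series 1. Eif2s3y, given above, was high in name series 1 alone.

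Other genes of the pathway were read from lists. None of 21 interferon ligand genes passed the filter on low values, 18 of them were listed at 0 in all libraries, and the highest value was 0.730 TPM for Ifna16 in RankCre-ki replicate 2. Of 19 tested induction and signalling genes outside the group, 0 passed the threshold between genotypes. At an unadjusted limma p under 0.05 stood 2 of them, both higher in RankCre-ki, against 6.34% of all tested genes higher. They were Irf5, a transcription factor of interferon and cytokine genes, at 0.183, 0 and 0 TPM and at 9.97 and 14.6 TPM, and the Janus kinase gene Tyk2, at 0.243, 0.236 and 0.329 TPM and at 4.39 and 5.65 TPM. Their log2 fold changes were 3.63 ± 0.96 and 2.24 ± 0.81 (SE), and the groups did not overlap for either gene. Ptpn6, Irf3 and Ptpn2 were abundant, with means of 64.2 to 139.8 TPM. Ptpn2, a phosphatase that limits Janus kinase signalling, was at 18.7, 86.6 and 88.1 TPM and at 96.2 and 31.3 TPM, low in both libraries of name series 1 (-1.92, unadjusted limma p 0.00685).

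A further 35 interferon-induced genes outside the group were tested. Between genotypes their median log2 fold change was 0.13, against 0.52 for all tested genes, and 0 passed the threshold. At an unadjusted limma p under 0.05 stood 1 of them, against 6.87% of all tested genes (0.529% lower in RankCre-ki). This was Ube2l6, the conjugating enzyme for Isg15, at 219, 349 and 350 TPM and at 162 and 120.2 TPM, and its log2 fold change was -1.09 ± 0.45 (SE). Its RankCre-ki libraries lay below all wild-type libraries. The most abundant others, with means of at least 50 TPM, were Uba7, Tgtp1, Lgals3bp, Irgm1, Slfn2, Ifi47, Ifi203, Igtp and Nmi. Across name series the median difference of the 35 genes was -1.34, against -0.24 for all tested genes. Of the 35, 29 were lower in name series 1, against 57.1% of all tested genes. Among the 29, 9 stood at an unadjusted limma p under 0.05, with 0 higher, against 7.7% of all tested genes lower and 12.3% higher. The 9 were Oas1c, Trim30a, Lgals3bp, Oasl1, Irgm1, Parp10, Igtp, Ifi47 and Tgtp1. Among them Irgm1, Igtp, Ifi47 and Tgtp1 code for immunity-related GTPases, and Igtp was at 11.8, 142 and 131 TPM and at 84.4 and 34.6 TPM. The same libraries carry both gene lists, so the second list is no independent sample.

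Of the markers of other cells, Cd48 and the erythroid list separated the genotypes, and their part in the results was not tested. Cd48, excluded by the sort, was listed at 0 in each wild-type library, while the RankCre-ki libraries had 4.92 and 5.62 TPM. The 8 erythroid markers summed to 121 to 134 TPM in wild-type and to 300 and 1390 TPM in RankCre-ki libraries. Of these, Hbb-bt was at 36.2 to 124 TPM in wild-type and at 251 and 632 TPM in RankCre-ki libraries. Hba-a1 was highest in wild-type replicate 1, at 31.6 TPM. The other lists overlapped between genotypes. The 8 plasmacytoid dendritic cell markers, Bst2 of the group among them, summed to 73.7 to 206 TPM and to 243 and 170 TPM. The 10 monocyte and macrophage markers summed to 4.33 to 47.5 TPM in wild-type and to 32.9 and 57.4 TPM in RankCre-ki libraries, with Adgre1 at 0 in all libraries and C1qa at most at 0.0356 TPM. The 8 T and NK cell markers summed to 1.004 to 45.7 TPM and to 30.7 and 44.0 TPM. Megakaryocyte markers ran from 82.9 to 205 TPM, endothelial markers from 168 to 310 TPM, and mesenchymal and osteoblast markers from 3.79 to 18.2 TPM over the 5 libraries.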

How the data were processed

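The authors sequenced full-length poly(A) cDNA, aligned reads with gsnap to mm10 with Ensembl splice sites and counted fragments with featureCounts 2.0.1. The deposited values are TPM per gene, and the software that made them is not given in the sources used here. The table held 55427 rows. After removal of 92 spike-in rows at 0, 55335 genes were left, of which 24393 were at 0 in all libraries. Positive TPM down to 1.13e-10 occurred, so fragments were shared among transcripts by estimation and related or overlapping genes can exchange signal. TPM keeps no depth, so no counting interval can be given, and each value depends on all others of its library.

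Genotypes were compared by limma 3.58.1 in R 4.3.3 (eBayes with trend, two-sided) on log2(TPM + 1), which understates changes of low genes. Genes needed 1 TPM or more in 2 or more libraries, which left 13981 for the fit, with Benjamini-Hochberg adjustment over all of them. The limits of the threshold followed the study (adjusted p at most 0.1, absolute log2 fold change above 2), without covariates in the fit. The test itself differed. The study applied these limits to a test on fragment counts per gene and reported genes past them in both directions. That test was not repeated on the TPM values, so the 0 genes found with limma do not check the study's result. The code was tested on simulated data. The interferon response genes, the lists and the alternatives were chosen with earlier results of these data known. Every gene of the group was accounted for. Its values are printed per library where its mean was at least 10 TPM, its unadjusted p was under 0.05 or its groups did not overlap. Pathway genes outside the group are named at an unadjusted p under 0.05 or a mean of at least 50 TPM. Of 25 listed signalling genes 24 were found. The value of 1 of them is not reported here. Alternatives were another pseudocount, other filters, 3 other scalings, a name series block, a replicate block, eBayes without trend and leaving out each library. Gene positions are from GENCODE M21 (GRCm38), which held 99.7% of the identifiers.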

Additional observations from a re-analysis of the deposited data

How the results depend on the processing

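Depth is unknown, and 2 RankCre-ki libraries limit every genotype statement. The genotype threshold was passed by 0 of the 43 interferon response genes under every alternative run. Over all genes it was passed by 0, and by 0 to 304 when 1 library was left out, the 304 without RankCre-ki replicate 1 and 1 without wild-type replicate 1. A fit with a single library in a group assumes that it varies like the other group. The number of interferon response genes at an unadjusted limma p under 0.05 was 1 in the report, against 6.87% of all tested genes. It was 0 without a filter on low values (3.87% of all tested genes). It was 3 after median-ratio scaling (6.92%), with name series as a block (10.1%) and with eBayes without trend (6.99%). With 1 wild-type library left out it was 0 to 4 (4.53% to 10%). The 10 genes with both RankCre-ki libraries above all wild-type libraries became 5 after median-ratio scaling, 3 after quantile normalization and 10 to 16 with 1 library left out, where 24.3% to 33.8% of all tested genes were above. The 2 genes below became 6, 5 and 2 to 9 in the same order, the last against 5.66% to 12.3% of all tested genes. The difference in genes detected, 3.5, ranged from 1 to 6 with 1 library left out. The 2 genes called between name series became 0 after median-ratio scaling, 4 after quantile normalization, 1 after rescaling to nuclear protein-coding genes and 0 to 2 with 1 library left out. Calls over all tested genes went from 1166 to 16, 382 and 29 under these scalings and to 0 without RankCre-ki replicate 1. In place of Ifitm1 and Ifitm3, Oas2 was called without wild-type replicate 1 (-2.10), and Oas2 (3.10, the opposite direction) and Gbp7 without RankCre-ki replicate 2. Oas2 is listed at 0 in 3 libraries. Without wild-type replicate 1 or RankCre-ki replicate 2, wild-type replicates 2 and 3 alone give the spread of a gene in the name series fit. They were both at 0 for Oas2 and at 116 and 112 TPM for Gbp7. Gbp7 and Ifitm2 joined Ifitm1 and Ifitm3 after quantile normalization. The cause of these changes was not tested. Log2 fold changes of single genes were within the spread between replicates in 521 of 531 refits. Scaling, which shifts the median of all genes as given in the report, turned the sign for 7 genes with log2 fold changes of 0.01 to 0.37, Ifi27, Ifit2, Ifnar1, Isg15, Oas2, Rsad2 and Samhd1.

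Replicate numbers do not pair the libraries: the deviations of same-numbered libraries from their group means correlated at -0.38 (number 1) and -0.20 (number 2) across genes, which are not independent replicates. With 2 RankCre-ki libraries the first value is the mirror of that for wild-type replicate 1 with RankCre-ki replicate 2, the libraries of name series 1 (0.38). With a replicate block, 1 gene of all tested passed the threshold, 0 interferon response genes did, and 1 of them stood at an unadjusted limma p under 0.05.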
